A study of Homo sapiens with 6 samples.

Results

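The small nucleolar RNA host genes (SNHGs) were examined after knockdown of NONO in HCT116, a line of human colorectal carcinoma cells. They were taken by name, as every gene whose symbol is SNHG followed by a number, with GAS5, DANCR, ZFAS1 and EPB41L4A-AS1 added, which gave 32 of the 62492 genes listed. RNA-seq of polyA RNA was available for 3 siControl and 3 siNONO libraries, and each of Sets 1 to 3 holds 1 library of either kind. All cells carried the wild-type genotype, were transfected with 20 nM siRNA using lipofectamine and differed only in the duplex, a commercial control or 1 duplex against NONO. With 1 NONO duplex, loss of NONO and any other effect of that duplex cannot be told apart. The labels do not say what a Set is. In the main fits, which take the Set as a block, the p-values rest on the spread between these libraries that is left after the Set. This spread may be technical. The harvest time of these libraries is not given in the sources used here.

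SNHGs are transcribed by RNA polymerase II and spliced like mRNAs, but the part most conserved between species is often in the introns, where the small nucleolar RNAs (snoRNAs) lie. The excised introns are trimmed to snoRNAs, which guide the chemical modification of ribosomal RNA: box C/D snoRNAs guide 2'-O-methylation and box H/ACA snoRNAs guide pseudouridylation. The exons that are left form a long noncoding RNA. Several of these RNAs, GAS5 the best studied, carry a 5' terminal oligopyrimidine (TOP) run like the mRNAs of ribosomal proteins, and are turned over by nonsense-mediated decay (NMD) when they meet ribosomes. NONO is an RNA- and DNA-binding protein of the DBHS family and a core protein of paraspeckles, nuclear bodies built on the long noncoding RNA NEAT1.

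The level of the exonic RNA thus starts at the promoter, and the first bases of the transcript tell whether it can be a TOP RNA. The 5' ends of the 6 SNHGs with the highest mean level, SNHG6 left aside, are shown for that reason, with 10 bases before and 20 bases from the annotated start (GENCODE version 44 on GRCh37). Capitals mark a TOP-like run, a C followed by at least 4 bases that are each C or T, whose first base is between -5 and 5, where 1 is the first transcribed base and there is no 0.
SNHG29, chr17:16342341-16342370, plus strand: aaggtgtgaCCTTTTCattcccgttgttat
GAS5, chr1:173837108-173837137, minus strand: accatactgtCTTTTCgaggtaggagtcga
ZFAS1, chr20:47895169-47895198, plus strand: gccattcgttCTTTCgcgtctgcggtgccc
SNHG1, chr11:62623375-62623404, minus strand: gggcctctgcggcatggtatttaatcgtct
SNHG8, chr4:119199853-119199882, plus strand: gcgcttCCCCCggaatagcgtcatcagttc
SNHG32, chr6:31802375-31802404, plus strand: cggaccatgggctgctgggaaacggcttag
The run was found in SNHG29, GAS5, ZFAS1 and SNHG8. No such run began between these positions in SNHG1 and SNHG32, although a stretch of the same kind lies just upstream of them in the window of SNHG1. The run of SNHG8 begins at -4, within a stretch of C and T that also reaches further upstream. Of its marked bases only the last lies at or after the annotated start. SNHG6 was searched in the same way, with no run found, and its window is not shown. Only the strand of the gene was read, and runs of different lengths were counted once. Among all SNHGs that could be tested for a change, 9 of 28 had such a run (32.1%), beside 20.1% of 16753 genes tested that had an annotated start and 29.6% of 314 protein-coding genes with a snoRNA in an intron. SNHG12, DANCR, SNHG7, SNHG17 and SNHG25 are the others. The run of SNHG17 is 5 bases long and begins at -5, so all of it lies before the annotated start. A match is a description of the sequence and not a mapped start.

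The target of the siRNA was checked first. NONO had 496, 494.5 and 516 CPM (counts scaled to library size with edgeR's TMM factors) in siControl and 89.5, 95.5 and 100.4 CPM in siNONO. The siNONO libraries kept 18.9% of the siControl level, with a log2 fold change of -2.40 (standard error 0.0337, edgeR quasi-likelihood adjusted p = 2.47e-13, corrected by Benjamini-Hochberg over all genes). Total counts ran from 21765393 to 32659002 per library. The epithelial markers EPCAM, CDH1, KRT8, KRT18 and KRT19 were present in every library, with a summed level of 2872 to 3007 TPM (a level that is corrected for transcript length and library size) in siControl and 2711 to 3002 TPM in siNONO. EPCAM and KRT19 rose by 0.32 and 0.14 on the log2 scale, by the same test. Of 7 markers of leukocytes, fibroblasts, endothelium, hepatocytes and glia, PECAM1 was not analysed here, COL1A2 was at 0 in all libraries, PTPRC and CD3E had at most 1 count, and the sum, nearly all COL1A1, was 16.8 to 19.5 TPM in siControl and 17.2 to 19.3 TPM in siNONO. Mitochondrial genes held 20.7% to 21.8% of all TPM in siControl and 22.3% to 25.6% in siNONO, and the part of this shift in the results below was not tested.

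SNHGs covered a wide range of levels in HCT116 cells. Together they held 2970, 2966 and 3044 TPM in siControl and 3200, 3135 and 3349 TPM in siNONO, so the siNONO libraries were all above the siControl libraries. This is 0.297% to 0.304% of all TPM in siControl and 0.314% to 0.335% in siNONO. SNHG29, the host of SNORD49A, SNORD49B and SNORD65, was the highest in every library and made up 25.3% to 27.1% of the sum. GAS5 came next with 411 ± 7.51 TPM in siControl (SD, n = 3), followed by SNHG6 with 300.4 ± 3.72 TPM, SNHG1 with 223 ± 5.53 TPM and ZFAS1 with 219 ± 9.71 TPM. The siControl ranges of SNHG1 and ZFAS1 overlapped, so their order is open, whereas those of SNHG29, GAS5 and SNHG6 did not. SNHG8, SNHG32, DANCR and SNHG16 lay between 109.6 and 123.9 TPM on average. In all, 9 SNHGs had a mean of at least 100 TPM in siControl, 22 had at least 10 TPM and 10 were below that.

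**Figure D1:**
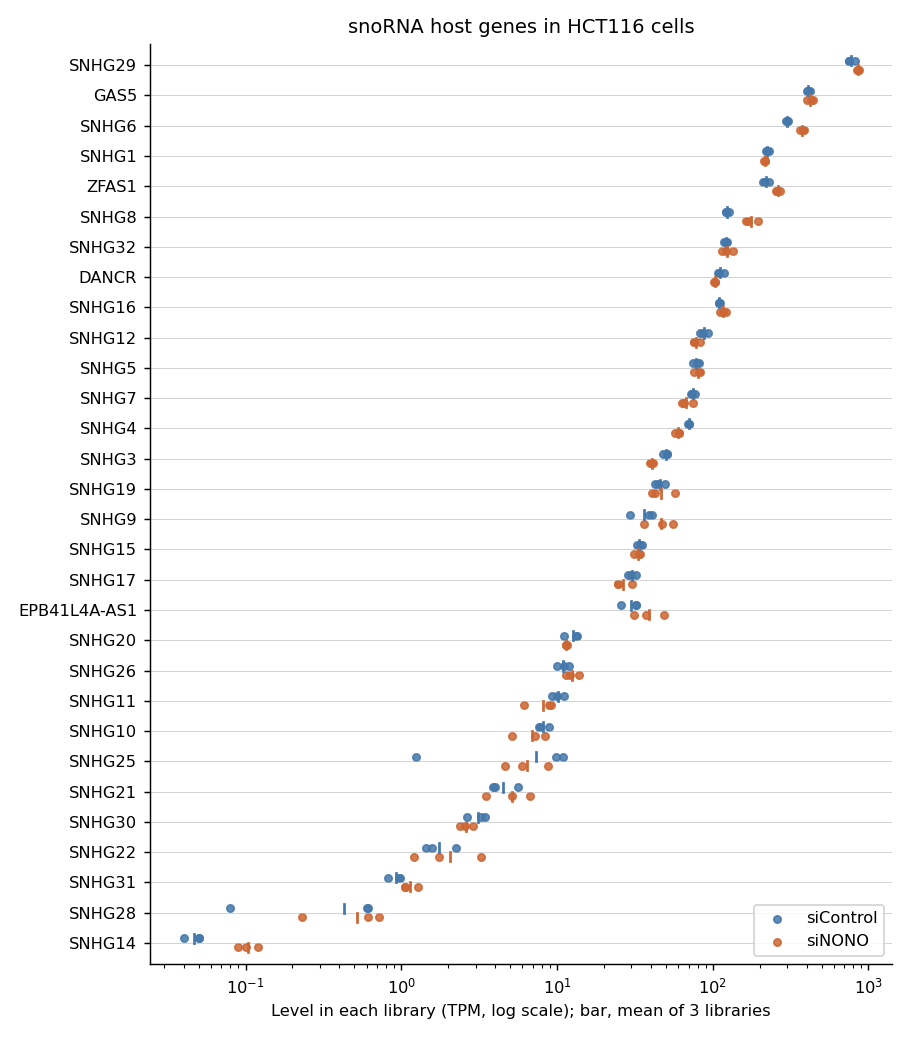
Level of each SNHG in each library in TPM on a log axis, for the 30 that were above 0 in any library, with 1 point per library and a bar at the mean of 3 libraries. The levels run from 776 TPM for SNHG29 down to 0.0467 TPM for SNHG14 (means of siControl), and the gap between siControl and siNONO is small beside the range between genes.

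At the low end, 4 SNHGs had too few counts to be tested. SNHG14, the host of the SNORD115 and SNORD116 arrays in the imprinted Prader-Willi region, had 4 to 10 counts per library. SNHG22 had 5 to 18 counts, and SNHG18 and SNHG27 were at 0 in all 6 libraries. The remaining 28 passed edgeR's filter on low counts, among 17000 genes.

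Knockdown of NONO was followed by small changes of SNHG levels in both directions. Of the 28 tested, 7 rose and 4 fell at an adjusted p of at most 0.05, and 17 did not pass. A called gene was no rarity in this comparison, since 46.6% of all genes tested were called, 23.2% higher and 23.4% lower. The SNHGs called were 39.3% of those tested, 25% higher and 14.3% lower, a share near this background. No SNHG that was tested had an absolute log2 fold change of 0.5 or more. The median log2 fold change of the 28 was 0.03 (quartiles -0.09 and 0.31), beside -0.0048 for all genes (quartiles -0.22 and 0.21), while the median within Sets 1, 2 and 3 came to 0.0065, -0.02 and 0.10. Without either library of Set 3 the median of the 28 or 29 SNHGs tested turned to -0.02, and without siNONO replicate 1 it was 0.12.

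**Figure D2:**
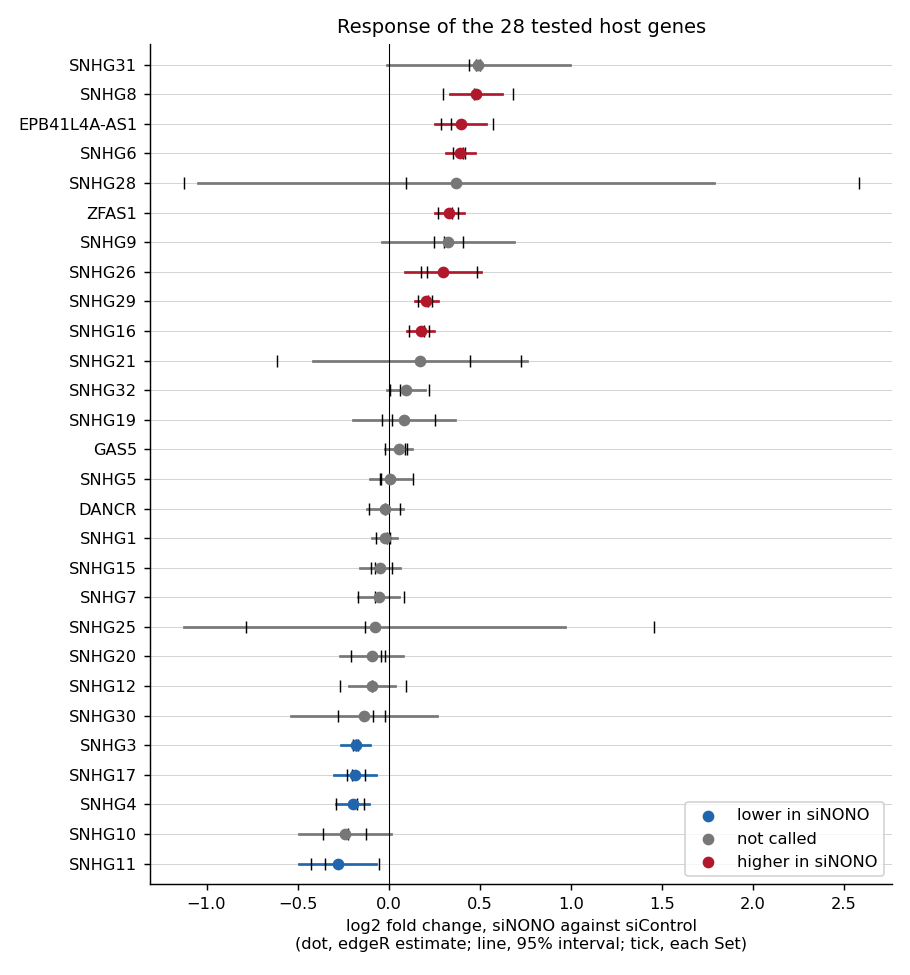
log2 fold change of siNONO against siControl for the 28 SNHGs tested, with the edgeR estimate (dot), its 95% interval (line) and the value of each Set (tick). The 7 red genes rose, the 4 blue genes fell, and the widest intervals belong to SNHG28 and SNHG25, which had at most 21 counts in any library.

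Among the SNHGs that rose, SNHG8, the host of SNORA24, had the largest change. It was at 27.9, 29.5 and 26.9 CPM in siControl and 38.7, 36.2 and 43.2 CPM in siNONO, and the groups did not overlap. This was a rise of 39.4%, or 0.48 on the log2 scale (standard error 0.0657, adjusted p = 6.59e-05). SNHG6, the host of SNORD87, had 64.2, 68.1 and 67.0 CPM in siControl and 85.7, 87.0 and 88.8 CPM in siNONO. All siNONO libraries were higher, and the spread within either group was small beside the log2 fold change of 0.39 (standard error 0.0366, adjusted p = 2.36e-06). ZFAS1, which holds SNORD12, SNORD12B and SNORD12C, was at 88.6, 86.7 and 85.5 CPM in siControl and 107.0, 113.0 and 108.9 CPM in siNONO. It was higher in every siNONO library, with a log2 fold change of 0.33 (standard error 0.036, adjusted p = 8.4e-06, edgeR's quasi-likelihood test as for all adjusted p-values here).

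SNHG29 gained the most TPM, from 776 to 857 TPM on average. It had 419.5, 434.8 and 453.7 CPM in siControl and 494.9, 505.5 and 507.8 CPM in siNONO, without overlap, and rose by 15.4% (log2 fold change 0.21, standard error 0.0289, adjusted p = 7.82e-05). EPB41L4A-AS1, the host of SNORA13, went from 20.4, 21.4 and 20.0 CPM to 25.8, 26.2 and 29.8 CPM. It lay higher in all siNONO libraries and rose by 31.6% (log2 fold change 0.40, standard error 0.0642, adjusted p = 0.000247). SNHG16, which holds SNORD1A, SNORD1B and SNORD1C, had 136.2, 139.3 and 135.8 CPM in siControl and 158.7, 150.6 and 155.5 CPM in siNONO. The log2 fold change was 0.18 with a standard error of 0.0336 and an adjusted p = 0.000863. SNHG26, the host of SNORD93, was the least abundant of the 7 with 11.0 TPM in siControl on average. It had 7.04, 8.18 and 7.70 CPM in siControl and 9.89, 9.46 and 8.73 CPM in siNONO, again without overlap (log2 fold change 0.30, standard error 0.0957, adjusted p = 0.0218).

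SNHG3, SNHG17, SNHG4 and SNHG11 fell, SNHG3 the least, which fell by 11.9%, and SNHG11 the most, which fell by 17.6%. SNHG3 had the smallest standard error of them. It holds SNORA73A and SNORA73B, also known as U17, which act in the cleavage of the ribosomal RNA precursor. SNHG3 had 74.6, 75.8 and 79.3 CPM in siControl and 66.4, 66.8 and 69.2 CPM in siNONO, without overlap, and fell by 0.18 on the log2 scale (standard error 0.0365, adjusted p = 0.00125). SNHG4, the host of SNORA74A, was at 69.9, 69.6 and 70.3 CPM in siControl and 61.9, 63.4 and 57.4 CPM in siNONO. Its siControl libraries were nearly equal and all above those of siNONO, with a log2 fold change of -0.20 (standard error 0.0422, adjusted p = 0.00192). SNHG17, which holds the SNORA71 family, had 26.3, 27.5 and 30.7 CPM in siControl and 24.0, 23.9 and 26.1 CPM in siNONO, with a narrow gap between the groups (log2 fold change -0.19, standard error 0.0533, adjusted p = 0.0118). SNHG11, the host of SNORA60 and SNORA71E, had 10.1, 9.09 and 8.84 CPM in siControl and 7.94, 6.76 and 8.51 CPM in siNONO, with a change of -0.28 on the log2 scale (standard error 0.0976, adjusted p = 0.0325).

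5 of the 11 calls held under each of 17 alternative settings: SNHG8, SNHG6, ZFAS1 and SNHG29 higher and SNHG3 lower. None of the 11 turned its sign under any of them. SNHG11 and SNHG17 kept their call under 8 and 10 of the 17 settings. Without the Set as a block both were lost, at adjusted p = 0.0648 and 0.0756 by edgeR, and the count of SNHGs that fell was 2. SNHG11 was also lost without either library of Set 1 or of Set 2, at adjusted p from 0.161 to 0.229, and SNHG17 without siControl replicate 2 (adjusted p = 0.087) or siNONO replicate 2 (adjusted p = 0.0683), so 2 SNHGs fell by edgeR without either library of Set 2. SNHG26 was lost without siControl replicate 1 (adjusted p = 0.226) and without siNONO replicate 1 (adjusted p = 0.239, both by edgeR). With limma on log2(TPM + 1) SNHG16, EPB41L4A-AS1 and SNHG26 were not called, SNHG16 at 0.09 (adjusted p = 0.163), and SNHG9 was called higher at 0.33 (adjusted p = 0.00696).

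GAS5 and SNHG1, both among the 4 highest by level, did not pass the test. GAS5 holds box C/D snoRNAs such as SNORD44, SNORD47 and SNORD74 to SNORD81, and is known as an RNA that builds up in growth-arrested cells. It had 188.9, 199.5 and 194.4 CPM in siControl and 202.3, 196.4 and 206.5 CPM in siNONO. The groups overlapped, and the log2 fold change of 0.05 had a 95% interval of -0.02 to 0.13. SNHG1, the host of SNORD22 and SNORD25 to SNORD31, was at 222.5, 238.4 and 226.3 CPM in siControl and 223.5, 227.5 and 225.1 CPM in siNONO. Its siNONO libraries lay inside the siControl range (log2 fold change -0.02, 95% interval -0.09 to 0.04). At these counts the intervals leave room for changes of at most about 0.13 on the log2 scale.

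Other abundant SNHGs were also within narrow intervals. DANCR, the host of SNORA26, had a log2 fold change of -0.02 (95% interval -0.12 to 0.08), SNHG5, the host of SNORD50A and SNORD50B, had 0.0089 (-0.10 to 0.12), and SNHG15, the host of SNORA9, had -0.05 (-0.16 to 0.06). SNHG7, which holds SNORA17A and SNORA17B, had -0.06 (-0.17 to 0.06), and SNHG12, which holds SNORA44, SNORA61, SNORA16A and SNORD99, had -0.09 (-0.22 to 0.03). SNHG12 was called lower when either library of Set 3 was left out, at log2 fold changes of -0.18 and -0.18. SNHG32, the host of SNORD48 and SNORD52, was at 54.0, 52.6 and 53.0 CPM in siControl and 54.3, 55.0 and 61.7 CPM in siNONO, where the highest value is that of Set 3. Its groups did not overlap, but its log2 fold change of 0.09 did not pass (adjusted p = 0.128 by edgeR).

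Among those with fewer counts, the intervals were wide. SNHG9, the host of SNORA78, had 1.97, 2.48 and 2.92 CPM in siControl and 2.45, 3.31 and 3.47 CPM in siNONO, with a log2 fold change of 0.32 and an interval from -0.04 to 0.69. SNHG19, the host of SNORD60, had 0.08 (-0.20 to 0.36), and SNHG20 had -0.09 (-0.27 to 0.08). SNHG10, SNHG21, SNHG25, SNHG28, SNHG30 and SNHG31 had fewer than 10 TPM and log2 fold changes between -0.24 and 0.49, of which none passed. SNHG31, at 24 to 51 counts per library, had the highest estimate of all 28, 0.49, with an interval from -0.01 to 0.99. A change of this size could not be told from none at its depth.

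By the plain order of the libraries, 14 of the 28 SNHGs had groups that did not overlap in CPM, 9 higher and 5 lower in siNONO, beside 47.8% of all genes. These are the 11 genes called, with SNHG31, SNHG32 and SNHG10.

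The SNHGs that rose and those that fell were also sorted by the class of snoRNA they host. RefSeq (GRCh38) was used for which snoRNA genes lie inside each SNHG, since its list was the fuller one for hosts such as GAS5 and SNHG1. Position alone was used, with no check of strand or intron. Of the 11 tested SNHGs that hold only box C/D snoRNAs by name, 5 rose (SNHG6, ZFAS1, SNHG29, SNHG16 and SNHG26) and 0 fell, and the median log2 fold change was 0.09. Of the 11 that hold only box H/ACA snoRNAs, 2 rose (SNHG8 and EPB41L4A-AS1) and 4 fell (SNHG3, SNHG4, SNHG11 and SNHG17), with a median of -0.05. GAS5 and SNHG12 hold both classes, and 4 tested SNHGs hold neither by name. These last 6 gave no call. GENCODE places SCARNA13 inside SNHG10 and SNORD64 inside SNHG28, both counted here as holding neither. Over all genes tested, 46.6% were called, 23.2% higher and 23.4% lower. Over the 17 alternatives the median ran from 0.03 to 0.16 for box C/D hosts and from -0.12 to -0.02 for box H/ACA hosts, but in Set 1 both medians were 0.02. The split by class was made after the values were seen and is a description with no test. Protein-coding genes that span a RefSeq snoRNA gene were counted in the same way, with no check of strand or intron. Of 98 tested that span only box C/D snoRNAs by name 35 rose and 26 fell. Of 96 that span only box H/ACA snoRNAs 34 rose and 24 fell. The medians were 0.02 and 0.03, so the counts of either class were close to each other. Another 11 tested genes span both classes, and 238 span neither by name.

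The TOP-like run was found in 3 of the 7 that rose (SNHG29, ZFAS1 and SNHG8), in 1 of the 4 that fell (SNHG17) and in 5 of the 17 that did not pass, GAS5 among them. The share over all genes tested with an annotated start was 20.1%. The run of SNHG17 lies wholly before the annotated start, and that of SNHG8 does so apart from its last base. These counts are a description with no test.

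RSEM also gives each gene a mean transcript length, weighted by how much of each annotated transcript it estimates, and this is a second readout that the choice of genes did not use. It was tested with limma on the log2 scale for 12164 genes with at least 1 TPM in every library and more than 1 length, 25 SNHGs among them. By limma with Benjamini-Hochberg adjustment 0 genes passed (0% of those tested), SNHGs included, and 1148 genes had an unadjusted p under 0.05 (9.44%). Within that limit, the estimated transcripts of SNHGs were mostly shorter in siNONO, with 21 negative and 4 positive differences, beside 50.5% negative over all genes. The median difference was -0.02 on the log2 scale for the SNHGs and -0.00025 for all genes.

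SNHG1, GAS5 and SNHG15 were shorter in every siNONO library. For SNHG1, the mean length was 1652, 1641 and 1652 bases in siControl and 1582, 1583 and 1578 bases in siNONO, a difference of -4.05%. GAS5 had 867.8, 876.1 and 858.0 bases in siControl and 841.5, 841.6 and 826.9 bases in siNONO, also without overlap. In SNHG15 the values were 1594, 1547 and 1589 bases in siControl and 1475, 1508 and 1462 bases in siNONO. SNHG29 and SNHG4 were the other 2 of the 5 SNHGs whose lengths did not overlap and were shorter in siNONO, which was the case for 7.3% of all genes in this fit. SNHG5 overlapped between the groups but fell by 4.87% on average and was shorter in siNONO in each Set. SNHG5, GAS5, SNHG1, SNHG8 and SNHG15 were the 5 with an unadjusted p below the threshold in the limma fit. Their adjusted p by limma lay between 0.456 and 0.501.

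**Figure D3:**
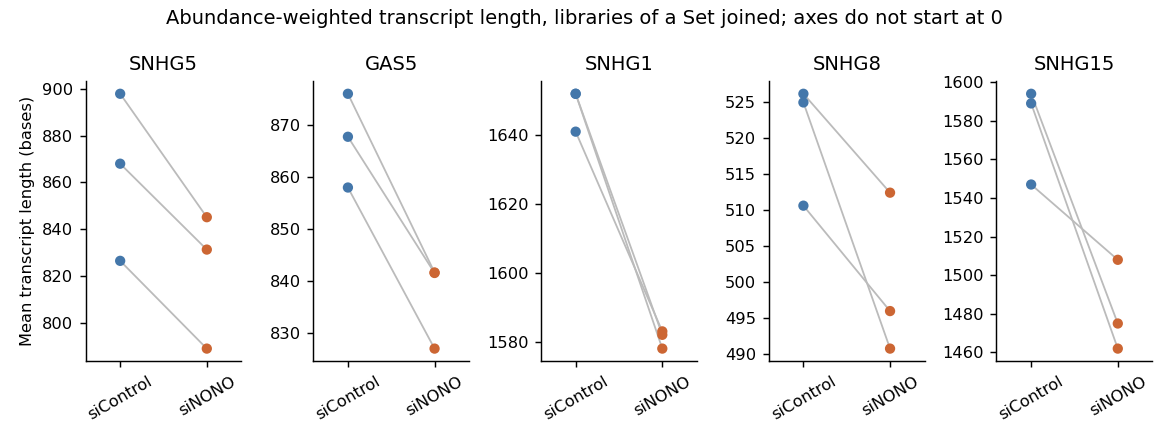
Mean transcript length in bases as estimated by RSEM, for the 5 SNHGs with an unadjusted p under 0.05, with 1 point per library and lines joining the 2 libraries of a Set; the axes do not start at 0. Each line falls from siControl to siNONO, where GAS5 fell by 3.54% and SNHG15 fell by 6.02% on average, and no adjusted p passed.

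Shorter estimated transcripts bear on the levels, because the same count on a shorter transcript is a higher level per length. With an offset for effective length in edgeR, the median log2 fold change of the SNHGs was 0.11, beside -0.0032 for all genes. GAS5 then passed (log2 fold change 0.13, adjusted p = 0.0495), and of the 4 genes that fell, SNHG3 alone still passed. The calls of EPB41L4A-AS1 and SNHG26 were also lost under this offset, at adjusted p = 0.0744 and 0.122 by edgeR. The offset fit called fewer genes altogether, 5407 against 7924 in the main fit. SNHG11 lost its call at a log2 fold change of -0.26, beside -0.28 in the main fit. Whether length was the reason for a lost call was not tested. EPB41L4A-AS1 had a mean length of 1105 to 1301 bases in siControl and 1010 to 1311 bases in siNONO, so its level per length was less certain than its count.

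Many SNHGs share their start with a protein-coding gene. ZFAS1 is named for its place antisense to ZNFX1, an RNA-binding protein of antiviral defence that interferon induces. The starts of ZFAS1 and ZNFX1 lie 585 bases apart on opposite strands. ZNFX1 rose by 0.84 on the log2 scale (standard error 0.0379, adjusted p = 3.82e-09), beside 0.33 for ZFAS1. SNHG3 starts 63 bases from RCC1, the exchange factor of the GTPase RAN, on the same strand. RCC1 had a log2 fold change of 0.02 (95% interval -0.06 to 0.09, adjusted p = 0.721 by edgeR), while SNHG3 fell. SNHG4 starts 27 bases from a gene listed as MATR3, which encodes the nuclear matrix protein matrin 3, again on the same strand. That gene rose by 0.37 (standard error 0.0684, adjusted p = 0.000705), while SNHG4 fell. RCC1 and SNHG3, and MATR3 and SNHG4, overlap on 1 strand, so how RSEM shared reads between them bears on both. The same limit holds for SNHG32, which overlaps a long noncoding RNA gene without a symbol on its strand. That gene fell by 0.64 (adjusted p = 9.4e-05, edgeR) and was lowest, at 11.9 CPM, in siNONO of Set 3, where SNHG32 was highest.

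Pairs around SNHGs that were not called were looked at after their values were seen. GAS5 and ZBTB37 start 391 bases apart, and ZBTB37 fell by 0.14 (adjusted p = 0.0207). TRAF7, 377 bases from SNHG19, rose by 0.48 (adjusted p = 6.44e-08), and BARD1, 526 bases from SNHG31, fell by 0.58 (adjusted p = 3.79e-05, edgeR's quasi-likelihood test as before). RPS2, a ribosomal protein gene 69 bases from SNHG9, and GLRX5, 408 bases from SNHG10, had log2 fold changes of -0.05 and -0.06 and did not pass. The kit marks strand, but whether the counting used it is not given in the sources used here, and without it reads from overlapping genes on opposite strands cannot be told apart. SNHG8 overlaps PRSS12 on the opposite strand, which fell by 0.48 (adjusted p = 1.06e-05) while SNHG8 rose. SNHG16 overlaps ST6GALNAC2, also on the opposite strand, which rose by 0.26 (adjusted p = 0.0313, edgeR). SIL1, which overlaps SNHG4 on the opposite strand, rose by 0.46 (adjusted p = 2.2e-05, edgeR) while SNHG4 fell. Among all 35 tested genes that overlap an SNHG or lie at its start, ZNFX1 and ST6GALNAC2 were those that rose with their SNHG, and none fell with an SNHG that fell.

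**Figure D4:**
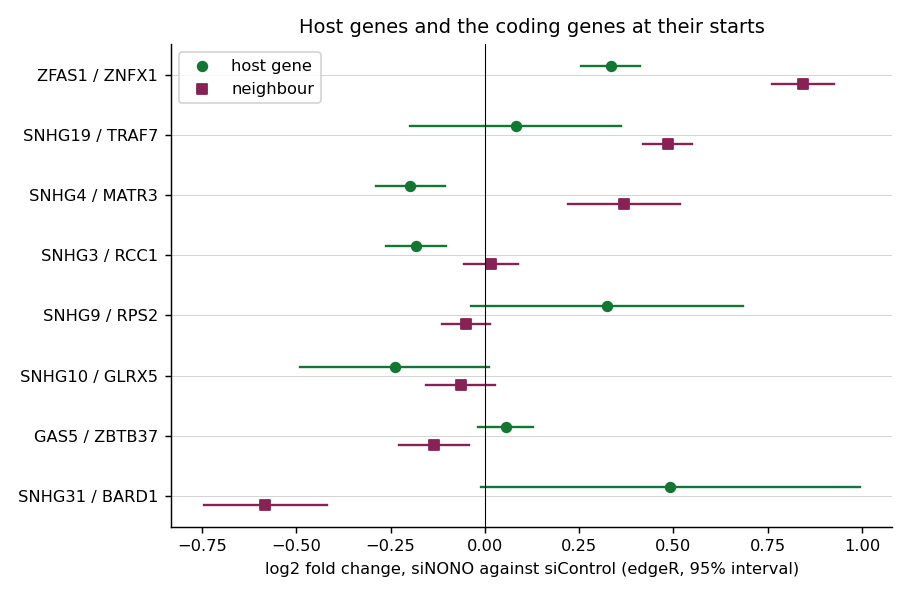
log2 fold change of siNONO against siControl (edgeR estimate with 95% interval) for tested SNHGs (circles) and the protein-coding genes at their starts (squares). ZFAS1 and ZNFX1 are both above 0, SNHG3 and SNHG4 are below 0 while RCC1 includes 0 and MATR3 is above it.

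The snoRNAs themselves were out of reach of these libraries. Of 101 snoRNA rows annotated inside SNHGs, 95 were at 0 in all libraries, the highest count was 10, and none could be tested. Of these rows, 72 lie inside SNHG14, which itself had 4 to 10 counts per library, and all of them were at 0. The other 29 rows include the 6 that were above 0. The annotation used for these rows places no snoRNA inside SNHG1, SNHG29, SNHG6, SNHG8, SNHG5, SNHG7, SNHG9 or SNHG15. The snoRNAs of these hosts were therefore not read. It places none inside SNHG20 or SNHG21 either, where RefSeq lists none as well. Inside GAS5 it places SNORD78 alone, where RefSeq lists 11. For GAS5, and likewise for SNHG12 and SNHG16, most of the snoRNAs were therefore not read. snoRNAs have no polyA tail, and these were polyA libraries. The levels above are totals over all annotated transcripts of each host gene, and fully spliced forms were not separated from others. Fewer cells with the RNA and less RNA per cell cannot be told apart in these bulk samples.

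The proteins that work with snoRNAs moved in both directions, and RUVBL1 by the most among those named. Of the 4 core proteins of box C/D particles, 2 rose and 1 fell: FBL, the methyltransferase, by 0.13 (standard error 0.032, adjusted p = 0.00459), SNU13, which binds the snoRNA, by 0.15 (adjusted p = 0.00229), and NOP56, a scaffold, by -0.15 (adjusted p = 0.00108). Of the 4 core proteins of box H/ACA particles, NOP10 and NHP2 rose by 0.18 and 0.21 (adjusted p = 0.00289 and 0.00223), and 0 fell. Among 10 assembly factors, 2 rose and 2 fell. These counts stand beside 23.2% higher and 23.4% lower over all genes tested. RUVBL1, an ATPase of the R2TP complex that loads snoRNP proteins, fell from 124.5 to 71.1 CPM on average, a log2 fold change of -0.81 (standard error 0.0343, adjusted p = 2.37e-09). Its partner RUVBL2 rose by 0.22 (adjusted p = 9.33e-05), SHQ1, the chaperone of the H/ACA pseudouridine synthase, rose by 0.29 (adjusted p = 0.000837), and ZNHIT3 fell by 0.18 (adjusted p = 0.0179, all by edgeR's quasi-likelihood test). FBL no longer passed without siNONO replicate 2 (adjusted p = 0.0622) or with the effective length offset (adjusted p = 0.0988, both by edgeR). ZNHIT3 did not pass without either library of Set 1 or Set 2 (adjusted p from 0.101 to 0.134 by edgeR). With limma on log2(TPM + 1) the calls of all 4 core proteins that rose were lost, FBL at 0.02 (adjusted p = 0.768), SNU13 at 0.05 (adjusted p = 0.289), NOP10 at 0.10 (adjusted p = 0.0565) and NHP2 at 0.10 (adjusted p = 0.252), and SNU13 was also lost with no replicate block (adjusted p = 0.0547 by edgeR).

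NMD and TOP genes were read next, since both bear on the exonic RNA of SNHGs. Of 15 NMD factors, 2 rose and 7 fell (median -0.08, beside 23.2% higher and 23.4% lower over all genes). CASC3, a subunit of the exon junction complex, fell from 104.6 to 66.8 CPM (log2 fold change -0.65, standard error 0.0358, adjusted p = 2.52e-08), and PNRC2, which links NMD to decapping, fell by 0.30 (adjusted p = 1.31e-05). The call of PNRC2 was lost with the effective length offset, at -0.06 (adjusted p = 0.822 by edgeR), and with limma on log2(TPM + 1), at -0.16 (adjusted p = 0.588). UPF3B, which joins the exon junction complex to the UPF proteins, rose by 0.64 (adjusted p = 2.4e-06), and RBM8A rose by 0.12 (adjusted p = 0.0168). On log2(TPM + 1) the sign of RBM8A turned, to -0.04, and without either library of Set 1 its call was lost (adjusted p = 0.126 and 0.138 by edgeR), as with no replicate block (adjusted p = 0.108). Of 6 mRNAs known as NMD targets, ATF4 rose by 0.26 (adjusted p = 0.000124) and 2 fell, GADD45A by 0.21 and UPP1 by 0.18 (adjusted p = 0.00408 and 0.0421). GADD45A was lost without siControl replicate 2 (adjusted p = 0.0567), and UPP1 without either library of Set 1 or Set 2 (adjusted p from 0.0894 to 0.355 by edgeR) or with no replicate block (adjusted p = 0.132). With the effective length offset UPP1 was at -0.07 (adjusted p = 0.56 by edgeR). Of 11 regulators of TOP RNAs, 4 fell and 0 rose, TIA1 by 0.27 and EIF4EBP2 by 0.17 the most (adjusted p = 0.000257 and 0.00069, edgeR).

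Protein-coding genes with a snoRNA in an intron were called in both directions in nearly equal numbers by edgeR. Of 377 such genes 314 were tested, of which 94 rose (29.9%) and 93 fell (29.6%), beside 23.2% and 23.4% of all genes, with a median of 0.0085. With limma on log2(TPM + 1) 25 of them rose and 83 fell, where the median of all genes was -0.07. The 2 highest were CPA4 and ASS1, a carboxypeptidase and the argininosuccinate synthase, at 1.25 and 0.77, and the 2 lowest were TRO and SYBU at -1.75 and -1.04 (adjusted p = 0.0114 and 1.59e-07). TRO was at 0.557 CPM in siControl and 0.165 CPM in siNONO on average, so its change rests on few counts, and it was lost without either library of Set 2 or Set 3 (adjusted p from 0.0537 to 0.0716 by edgeR) and with limma on log2(TPM + 1), at -0.20 (adjusted p = 0.138).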

How the data were processed

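RNA-seq libraries of HCT116 cells (3 siControl, 3 siNONO) were prepared by the authors with a stranded polyA kit, aligned with STAR to GENCODE transcripts on GRCh37 and quantified with RSEM (version 1.3.1). The deposited expected counts are RSEM estimates without normalization. The deposited TPM values are scaled for transcript length and library size, and a further deposited column gives the mean transcript length in bases. The FPKM column was not used. The SNHGs and all gene lists were chosen with earlier results of these data known.

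Counts were rounded, scaled with TMM and tested with edgeR (version 4.0.16, quasi-likelihood F-test in its edgeR 3 form) in R (version 4.3.3), with a block for the Set, over 17000 genes that passed filterByExpr, and adjusted by Benjamini-Hochberg. The threshold was an adjusted p of 0.05. Log2 of the length column was tested with limma (version 3.58.1). Symbols were matched for 62211 of 62492 genes. Coordinates, 5' ends, the snoRNA rows and the 377 protein-coding hosts came from GENCODE version 44 on GRCh37, a later release than the authors'. These hosts hold a snoRNA gene in an intron on the same strand. The snoRNAs named for each SNHG and the split by snoRNA class came from RefSeq on GRCh38. Genes described with values were SNHGs called or with at least 10 TPM in siControl, NONO, tested genes at the start of a called SNHG, and from each pathway list up to 2 called genes with the highest and 2 with the lowest change. Other genes named were chosen after their values were seen.

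The numbers of the Sets are those of the labels and were taken to pair the libraries. Deviations from the group means correlated at 0.289, 0.172 and 0.413 within Sets over 12252 genes. Between Sets the correlations ran from -0.319 to 0.138. Those between Sets 1 and 2 were 0.114 and 0.138, so Set 2 stood little apart from Set 1 by this measure. Replicates differed beyond sampling noise in every pair. The biological coefficient of variation was 3.51%. On simulated counts of 16825 genes, the test of siNONO against siControl recovered 75% of genes changed by 1.5-fold and 88.9% of those changed by 2-fold, with 4 false calls. These counts were drawn with the same coefficient of variation for every gene and no Set effect, so results in the real libraries may differ. The largest change of a called SNHG was 1.39-fold, and recovery at that size was not simulated. Alternatives were other scalings, filters and forms of the edgeR test, no block, DESeq2 (version 1.42.0), limma on log2(TPM + 1) and log2(TPM + 0.1), an offset for effective length, and each library left out in turn. The RefSeq rule for protein-coding hosts was added after seeing the data.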

Additional observations from a re-analysis of the deposited data

How the results depend on the processing

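Of the 48 single genes examined under 17 alternatives, 713 values kept their direction and side of the threshold, 75 no longer passed, 5 passed newly and 21 changed sign. The count of SNHGs that rose was 7, 6 or 5, but not always of the same genes: limma on TPM lost SNHG16, EPB41L4A-AS1 and SNHG26 and added SNHG9, and the effective length offset lost EPB41L4A-AS1 and SNHG26 and added GAS5. The count of SNHGs that fell went from 4 to 2 with no replicate block, with DESeq2 and with limma on TPM, to 1 with the effective length offset, and ran from 2 to 5 with 1 library left out. Without the replicate block SNHG17 and SNHG11 were not called, and the pathway genes that rose went from 103 to 68. The median log2 fold change of SNHGs was 0.11 with the effective length offset and ran from -0.0222 to 0.115 with 1 library left out. Pathway genes that rose were 29 with limma on log2(TPM + 1) and 29 with log2(TPM + 0.1), where the median of all genes was -0.07 and -0.09, and those that fell went from 106 to 70 with DESeq2. All genes called were 7924 with edgeR and 5227 with DESeq2, and 5257 and 5250 with limma on TPM. Protein-coding snoRNA hosts that rose were 94, and 61 with no block and 25 with limma on TPM. Those that fell were 93, and 64 with no block, 83 with limma on log2(TPM + 1) and 84 with log2(TPM + 0.1). No SNHG length passed in any of the 10 alternatives of that fit.

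Changes of sign concerned genes that were not called, apart from RBM8A, which was -0.0392 and -0.0394 with limma on log2(TPM + 1) and log2(TPM + 0.1). With the effective length offset SNHG1 was 0.0461 and SNHG15 0.0532, and with library size alone SNHG5 was -0.0068. With limma on TPM RCC1 was -0.0718 and -0.0725. With 1 library left out, SNHG1 ran from -0.0363 to 0.0122, DANCR from -0.0599 to 0.0263, SNHG12 from -0.181 to 0.00324, SNHG5 from -0.0455 to 0.0479, SNHG7 from -0.123 to 0.00892, SNHG19 from -0.00679 to 0.151 and RCC1 from -0.00505 to 0.0538. The cause of these moves was not tested. SNHG25 and SNHG28, with few counts, had the widest intervals of the SNHGs.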
